A study of Mus musculus with 2 samples.

Results

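The mRNA of 39 transcription factors that direct the erythroid lineage and the other blood lineages was compared between ESAM-KO and WT primitive erythroid progenitors after 5-FU treatment. The set was drawn up by gene name, with members taken from the known regulators of blood lineages, but with earlier results of these data known. All 39 were found among the 20660 genes that could be named on the array. The cells were pre CFU-E, which give rise to erythroid colonies, sorted from the bone marrow of femora and tibiae. The gate took Lin- cells that were positive for c-Kit, endoglin and CD150, negative for Sca1, low for CD41 and negative or low for FCgRII/III. The WT mice and the ESAM-KO mice were of the C57BL/6 strain and 8 to 12 weeks old, and both received a single injection of 120 mg/kg of 5-FU, an anti-cancer drug that kills dividing cells, 8 days before the marrow was taken. Marrow of 3 mice was pooled for each genotype and measured on 1 array, so that no value has a replicate, an SD or a p-value. The ESAM-KO mice descended from matings of heterozygous animals. The study describes ESAM as absent from the environmental cells of such mice too, so that the deletion was not restricted to blood cells. Untreated mice were not analysed here.

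Blood cell fate is set by small groups of transcription factors that activate the genes of one lineage and hold back those of another. GATA1 works with its cofactor FOG1 and with the SCL complex at erythroid genes, and KLF1 acts beside them at globin and red cell membrane genes. PU.1 and the C/EBP factors drive granulocytes and macrophages, and PU.1 and GATA1 bind and inhibit each other. HLF, EVI1 and MEIS1 belong to the stem cell, and their mRNA is usually lost as progenitors commit.

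The intensity of each spot was divided by the 75th percentile of its array, which was 201.4 for WT and 251.1 for ESAM-KO, and is called the relative intensity below. Every ratio is that of ESAM-KO over WT, given on the log2 scale, and the error given with it is the scanner software's own estimate for the spots, which covers neither amplification nor differences between mice. Probes differ in how brightly they bind, so that relative intensities are compared between arrays and not between genes. Where a probe was well above background on one array only, its change is given as at least so many fold. The bright value was then set against the dim probe's own signal or against the detection limit of the dim array, whichever was higher. Where the dim signal was the higher, as for Hlf, the value is the plain ratio and no minimum, though it is counted with the bounds. Most bounds are given without the scanner error, which reached 1.47 among the factors with a ratio. That limit was the lowest relative intensity called well above background, 0.0624 for WT and 0.0524 for ESAM-KO. In WT 57.3% of spots passed this call, and in ESAM-KO 61.1%. Both arrays lay on the same slide, and a difference between genotypes cannot be told apart from one between the pools, sorts or amplifications. Esam itself had a relative intensity of 0.136 in WT and 0.0820 in ESAM-KO, for a log2 ratio of -0.73 ± 0.31, so that the targeted gene was lower but near background on both arrays and checks the labels only weakly. Of the genes behind the sort, Kit was clearly present with 16.9 in WT and 13.2 in ESAM-KO. Eng, the gene of endoglin, was at 1.86 and 1.07, a log2 ratio of -0.80 ± 0.21. In contrast, Slamf1, with 0.0884 and 0.0916, and Itga2b, with 0.178 and 0.118, were close to background on both arrays. The antibodies of the Lin gate, against Mac1, Gr1, CD3e, B220 and Ter119, were meant to remove mature myeloid, T, B and red cells. Itgam, the gene of Mac1, has 3 probes. The probe that stands for it was bright on both arrays, with 379 in WT and 327 in ESAM-KO, and the others are not given. Ly6a, the gene of the excluded antigen Sca1, was at 0.303 in WT and not well above background in ESAM-KO, at least 5.79-fold lower.

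Of the 39 factors, 38 had a ratio and 9 of these differed by more than 2-fold. Spi1, Sox6, Cebpe, Gfi1, Ets1 and Nfe2 were lower in ESAM-KO, and Hlf, Mecom and Hhex were higher. Among all genes with a ratio, 15.4% were past 2-fold, against 23.7% of the factors. In one direction, 8.43% of all genes were lower and 6.99% higher by more than 2-fold, against 15.8% and 7.89% of the factors. For 5 of the 9, the value is a bound, and a gene seen on one array only had to differ to be counted. Of the 33 factors detected in both genotypes, 4 were past 2-fold, or 12.1%, and the share among all genes detected in both was 12.6%, so that these 33 lay near the background. The remaining 29 factors lay between -0.91 and 0.70, with 17 below 0 and 12 above, and 6 of those 17 (Gata2, Ldb1, Mafg, Myb, Fli1 and Myc) lay above 0 when the arrays were not scaled, since scaling lowered every ratio by 0.32. The median log2 ratio of the 38 was -0.28, and 0.04 without scaling, when that of all genes was 0.00050 and 0.31. Setting each array to its median left 1 factor higher and 8 lower, with Gfi1b and Meis1 added and Hhex and Mecom within 2-fold.

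**Figure D1:**
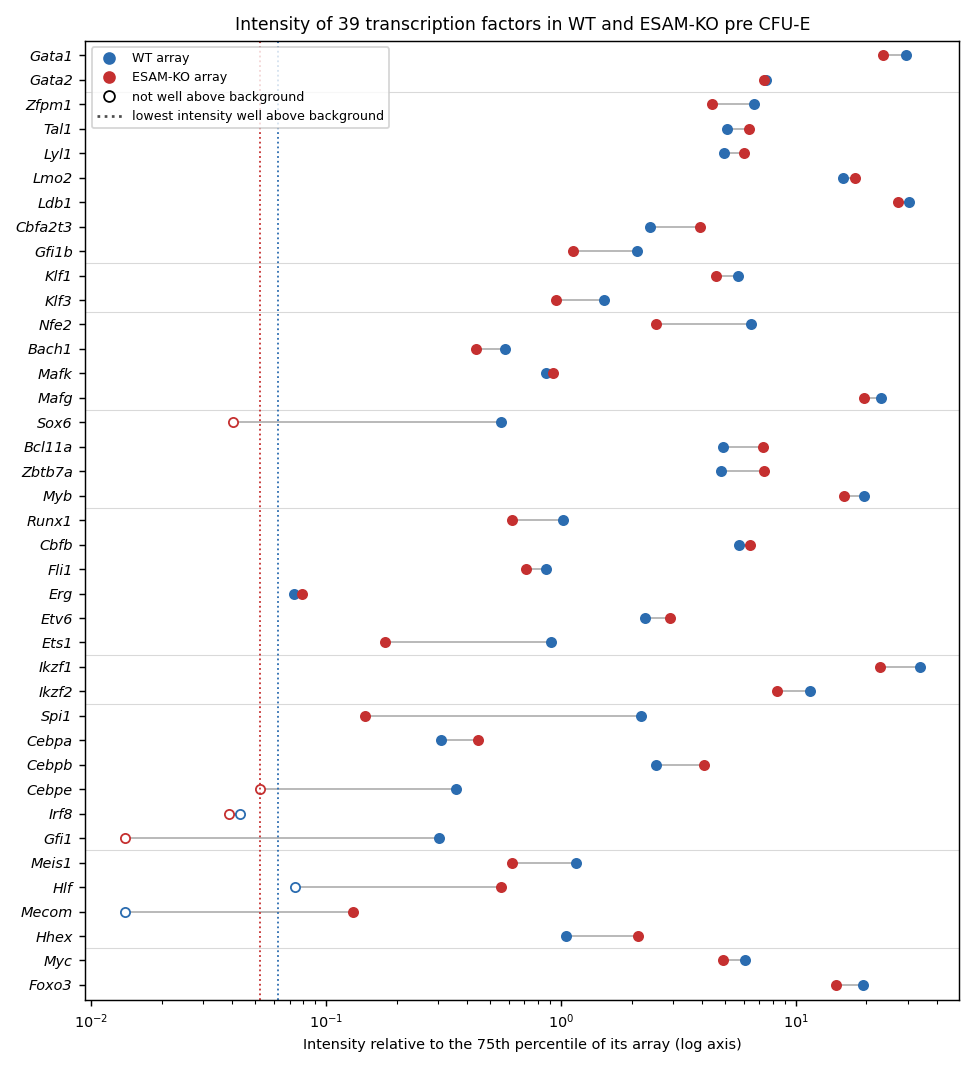
Relative intensity of the 39 factors in WT (blue) and ESAM-KO (red), on a log axis, with open symbols for probes not well above background and dotted lines at the lowest intensity well above background on each array. Spi1, Sox6, Cebpe, Gfi1 and Ets1 are joined by long lines to a dim ESAM-KO value, Hlf and Mecom to a dim WT value, and Gata1, Gata2, Lmo2 and Ldb1 have both points close together.

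Dim probes are past 2-fold more often than bright ones, and their ratios depend most on the background correction. Normexp correction with quantile normalization adds an offset of 50 to every spot and so draws the ratios of dim probes towards 0. It is given beside the values of the factors that it moved by over 1.5 times. For single genes of the other lists and of the sort it is not given, so their dim values may depend on the correction as well. When all genes with a ratio were divided into 4 equal groups by signal, 25.0% of the dimmest were past 2-fold and 3.05% of the brightest. Of the factors, 18 were in the brightest group with Nfe2 past 2-fold, and 6 were in the dimmest with 5 past 2-fold. Most of the large differences were thus measured where large differences are common.

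The GATA factors were similar on both arrays. GATA1 is the master regulator of erythroid and megakaryocyte differentiation, and Gata1 (NM_008089) had a relative intensity of 29.6 in WT and 23.5 in ESAM-KO. Its log2 ratio was -0.34 ± 0.20. GATA2 acts earlier, in stem and progenitor cells, and is replaced by GATA1 at its targets as erythroid cells mature. Gata2 was at 7.43 in WT and 7.30 in ESAM-KO, for a log2 ratio of -0.03 ± 0.20. The scaling cancels in the difference between both ratios, which was -0.31 ± 0.29 for Gata1 minus Gata2, so that the balance between them shifted by about the scanner error.

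The partners of GATA1 were all within 2-fold, in both directions. Zfpm1, which encodes FOG1, was at 6.67 in WT and 4.41 in ESAM-KO, for a log2 ratio of -0.60 ± 0.20, and its dimmer probe gave -0.43. Tal1 encodes the SCL protein, the helix-loop-helix factor of the complex. It was at 5.07 in WT and 6.33 in ESAM-KO, its log2 ratio being 0.32, and its relative Lyl1 at 4.96 and 6.04, with a log2 ratio of 0.29. Both were slightly brighter in ESAM-KO, and their ratios differed by 0.03 ± 0.29. The genes of the bridging proteins were also within 2-fold, with Lmo2 at 15.9 and 17.9 and Ldb1 at 30.5 and 27.1, and log2 ratios of 0.16 and -0.17.

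The repressors that join the same complexes were less uniform. Gfi1b encodes a repressor needed for erythroid and megakaryocyte development, and was at 2.11 in WT and 1.13 in ESAM-KO. Its log2 ratio of -0.90 ± 0.20 was just within 2-fold, and of the settings run it passed 2-fold with scaling to the array median alone, at -1.03. Cbfa2t3, which encodes the SCL corepressor ETO2, gave opposite answers by transcript. Its brightest probe, for NM_009824, was at 2.41 in WT and 3.92 in ESAM-KO, for a log2 ratio of 0.70 ± 0.20, and past 2-fold without scaling, at 1.02. The other probes, both for NM_001109873, were lower in ESAM-KO, with 1.64 and 0.892 for one (-0.88 ± 0.21) and 0.236 and 0.0931 for the other (-1.34 ± 0.30). The mean of the 3 probes was at -0.51, so no direction can be given for Cbfa2t3 as a gene.

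KLF1, the erythroid Krüppel-like factor that binds CACCC boxes, is the main activator of adult beta globin. Klf1 was at 5.70 in WT and 4.57 in ESAM-KO, for a log2 ratio of -0.32 ± 0.20, and near 0 without scaling, at -0.0020. Klf3 encodes a repressor that KLF1 itself activates and that binds the same boxes. It was at 1.53 and 0.956, with a log2 ratio of -0.68 ± 0.21, and the difference of Klf1 minus Klf3 was 0.36 ± 0.29.

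Nfe2 was the one erythroid factor among the bright genes that was past 2-fold. It encodes the larger subunit of NF-E2, which pairs with a small Maf protein at the globin locus control region and at megakaryocyte genes. Nfe2 had a relative intensity of 6.44 in WT and 2.54 in ESAM-KO. Its log2 ratio was -1.34 ± 0.20, or 2.54-fold lower in ESAM-KO, and it was past 2-fold in each of the 12 other scalings, corrections, filters and summaries, with values between -1.47 and -1.02. Its single probe leaves no second measurement of the gene. The small Maf partner Mafk was at 0.861 and 0.926, a log2 ratio of 0.11, and just below 0 with scaling to the array median, at -0.02. Mafg was at 23.2 and 19.4 at its brightest probe, a log2 ratio of -0.25, whereas its other probes gave -0.01 and 1.15, the last higher by 2.22-fold. Bach1 encodes the heme-sensitive repressor that competes with NF-E2 for small Maf proteins and was at 0.577 and 0.434, a log2 ratio of -0.41 ± 0.21. Nfe2 was thus lower relative to its rival Bach1 by 0.93 ± 0.29 and relative to Gata1 by 1.01 ± 0.29, differences in which the scaling cancels.

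Of the factors that act in globin switching, Sox6 alone was past 2-fold. SOX6 silences the embryonic beta-like globin genes and promotes red cell maturation in the adult. Sox6 (NM_011445) was at 0.557 in WT and not well above background in ESAM-KO, at 0.0403, so that it was at least 10.6-fold lower. That bound was not kept with normexp, where the log2 ratio was -1.39, or 2.62-fold. BCL11A and LRF, the product of Zbtb7a, silence fetal or embryonic globin by separate routes. Bcl11a was at 4.91 and 7.28 at its brighter probe (NM_001242934), a log2 ratio of 0.57 ± 0.20, and at 3.33 and 3.09 at the other (NM_016707), a log2 ratio of -0.11. Zbtb7a was at 4.83 and 7.35 at its brighter probe, a log2 ratio of 0.61 ± 0.20, and at 0.616 and 0.355 at the dimmer, a log2 ratio of -0.80 ± 0.21. For both genes the probes thus differed in sign and neither probe was past 2-fold. Myb, which keeps progenitors proliferating and opposes terminal maturation, was at 19.6 and 16.1, a log2 ratio of -0.29 ± 0.20.

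**Figure D2:**
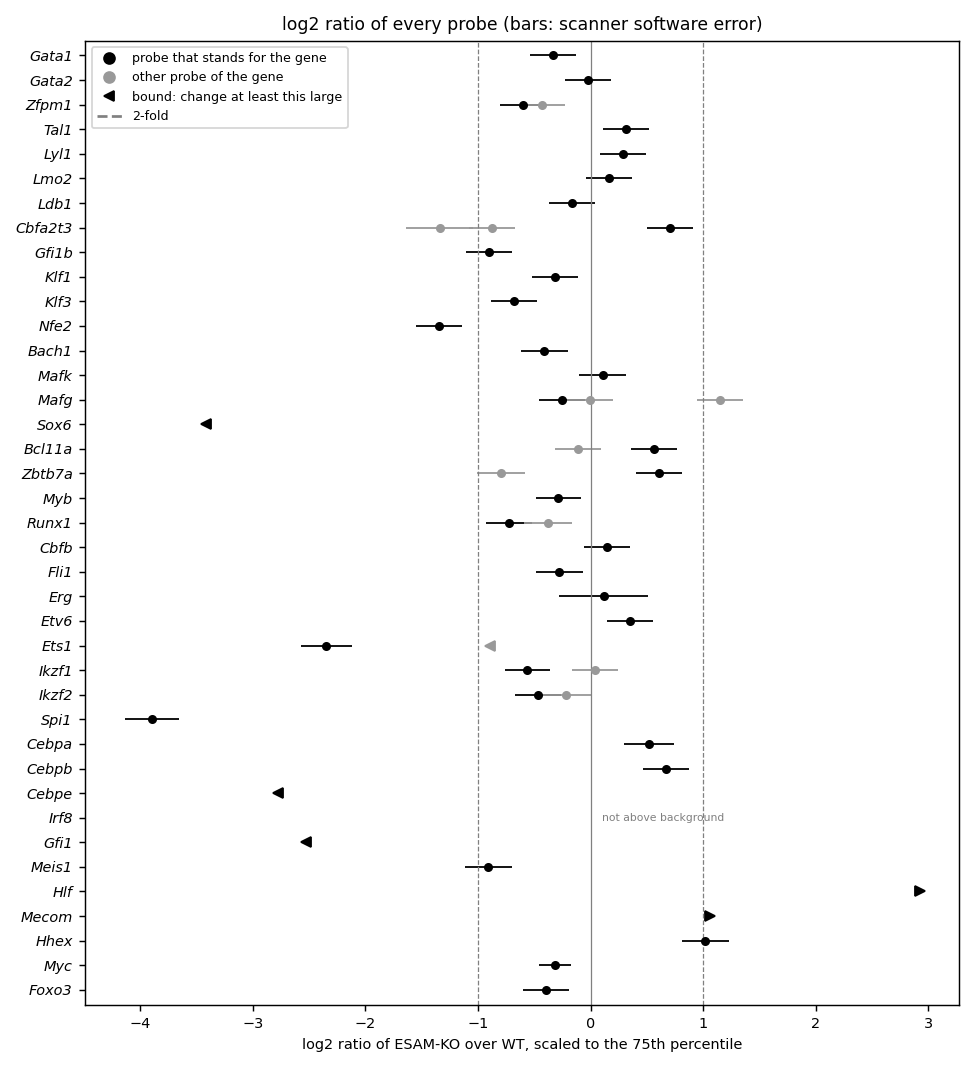
Change from WT to ESAM-KO, as a log2 ratio, for each probe of the 39 factors with a ratio, black for the probe that stands for the gene and grey for its other probes, with bars for the scanner software error, triangles for bounds and dashed lines at 2-fold. Of the 52 probes, those of Cbfa2t3, Mafg, Bcl11a, Zbtb7a and Ikzf1 lie on both sides of 0, whereas Spi1, Sox6, Cebpe, Gfi1 and Ets1 lie far to the left.

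The core binding factor is a dimer of RUNX1 with CBF beta, which RUNX1 needs for stable DNA binding. Runx1 was at 1.02 in WT and 0.620 in ESAM-KO at its brighter probe (NM_001111022), for a log2 ratio of -0.72 ± 0.21, and its dimmer probe (NM_009821) gave -0.38 ± 0.22. Cbfb was at 5.74 and 6.36, a log2 ratio of 0.15. Both were within 2-fold.

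Among the ETS family, which shares a domain that binds GGAA, Ets1 and Spi1 were past 2-fold and Fli1, Erg and Etv6 were not. ETS1 is best known from lymphoid cells and is normally low in maturing red cells. Ets1 was at 0.908 in WT and 0.178 in ESAM-KO at its brighter probe, for a log2 ratio of -2.35 ± 0.23 or 5.09-fold lower. Its dimmer probe was above background in WT only and gave at least 1.86-fold lower. The log2 ratio was -1.40 with normexp and -1.62 as the mean of both probes. Fli1, which favours the megakaryocyte over the erythroid fate and is opposed by KLF1, was at 0.862 and 0.711, a log2 ratio of -0.28 ± 0.21. Klf1 minus Fli1 was -0.04 ± 0.29, less than the scanner error. Erg, a stem cell and megakaryocyte factor, was near background at 0.0730 and 0.0790. Etv6, a repressor needed by marrow stem cells, was at 2.28 and 2.90, a log2 ratio of 0.35 ± 0.20.

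IKAROS, the product of Ikzf1, is a zinc finger protein of lymphoid development that also acts at globin and progenitor genes. Ikzf1 was at 33.7 in WT and 22.8 in ESAM-KO at its brighter probe, for a log2 ratio of -0.56 ± 0.20, and at 4.29 and 4.41 at its dimmer, a log2 ratio of 0.04. Ikzf2, which encodes the relative HELIOS, was at 11.5 and 8.30, a log2 ratio of -0.47 ± 0.20, and its dimmer probe gave -0.22. None of these 4 probes was past 2-fold. Gata1 minus Ikzf1 at the brighter probe was 0.22 ± 0.29, within the scanner error.

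Of the 6 myeloid factors, Spi1, Cebpe and Gfi1 were lower by more than 2-fold in ESAM-KO, Cebpa and Cebpb were within 2-fold, and Irf8 had no ratio. Spi1 (NM_011355), which encodes PU.1, had the largest change of any factor measured on both arrays. It was at 2.18 in WT and 0.147 in ESAM-KO, for a log2 ratio of -3.89 ± 0.24 or 14.9-fold lower. With normexp it was -2.50, or 5.66-fold lower. Cebpe, which encodes the C/EBP factor of late granulocyte maturation, was at 0.358 in WT and not well above background in ESAM-KO, at least 6.84-fold lower. Gfi1, the repressor that directs progenitors to neutrophils rather than monocytes, was at 0.302 in WT and not well above background in ESAM-KO, at least 5.77-fold lower. The bounds of Cebpe and Gfi1 were within 2-fold with normexp background correction and quantile normalization, at -0.93 and -0.85. In contrast, Cebpa, the factor that starts the granulocyte and macrophage path, was at 0.310 and 0.445, with a log2 ratio of 0.52 ± 0.22. Cebpb, used in emergency granulopoiesis, was at 2.54 and 4.05, a log2 ratio of 0.67 ± 0.20. Irf8, the factor of monocytes and dendritic cells, was at background in both genotypes, with 0.0432 and 0.0389, and has no ratio.

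The antagonists Gata1 and Spi1 were both lower in ESAM-KO, with log2 ratios of -0.34 and -3.89, so most of their difference came from Spi1. The difference of their log2 ratios, Gata1 minus Spi1, was 3.56 ± 0.31, or 11.8-fold. A constant scaling cancels in this difference, but normexp did not leave it as it was and gave 2.16, or 4.48-fold. Within the C/EBP family, Cebpe was lower relative to Cebpa by at least 9.83-fold and relative to Cebpb by at least 10.9-fold, and with normexp by 2.27-fold and 2.82-fold. The related repressors Gfi1 and Gfi1b cannot be ordered, since Gfi1 was dim in ESAM-KO and both were at -0.85 with normexp.

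Most neutrophil genes were lower in ESAM-KO, as were Spi1, Cebpe and Gfi1. For comparison with each list in this paragraph, 8.43% of all genes with a ratio were lower and 6.99% higher by more than 2-fold. Dim genes were past 2-fold more often. Of 13 neutrophil genes on the array, 12 were lower by more than 2-fold and none was higher, with a median log2 ratio of -3.30. The brightest were Csf3r, the receptor of the granulocyte growth factor, with 249 in WT and 301 in ESAM-KO, the antimicrobial protein gene S100a9, with 159 and 27.5, and Lcn2, an iron-binding granule protein gene, with 47.7 and 4.21. The summed relative intensity of the list was 549 in WT and 342 in ESAM-KO, and without the brightest probe, that of Csf3r, 299.98 and 40.5. In these arrays fewer cells of a type in the sort and less mRNA in each cell cannot be told apart, and the part of granulocyte RNA in the values of Spi1, Cebpe and Gfi1 was not tested. Of 8 genes of mast cells, basophils and eosinophils, 5 had a ratio and 3 were lower and 1 higher by more than 2-fold, the brightest being the eosinophil granule genes Prg2, with 6.07 in WT and 0.449 in ESAM-KO, and Epx, with 1.47 and 0.0775, and the basophil protease gene Prss34, at 0.395 in WT and not well above background in ESAM-KO. The defining genes Mcpt8, Cpa3 and Fcer1a were at background in both genotypes. Ms4a2, which encodes the beta chain of the IgE receptor of mast cells and basophils, was the one higher gene, with 0.0157 in WT, not well above background, and 0.163 in ESAM-KO, at least 2.61-fold higher. Of 8 B cell genes, 7 had a ratio, and of these 4 were lower and none higher, with a median of -1.72. The brightest were Vpreb1, with 1.27 and 0.232, Pax5, with 0.444 and 0.224, and Cd79a, with 0.310 and 0.247. The list summed to 2.92 in WT and 0.928 in ESAM-KO. Of 10 macrophage genes, 6 had a ratio, and of these 2 were lower and 1 higher, with a median of -0.07. The list summed to 34.8 and 30.4. Its brightest gene was Csf1r, with 32.5 and 29.1 at the 1 of 3 probes that stands for it. Without Csf1r the sum was 2.27 and 1.26. C1qb was at 0.509 and 0.626, and Lyz2 at 0.829 and 0.0780. Of 8 T and NK cell genes, 5 had a ratio, and of these 1 was lower and none higher, with a median of 0.11. Nkg7, Cd4 and Lck were the brightest, and the list summed to 13.7 and 15.2. The part of these cells in the values of the factors was not tested either.

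**Figure D3:**
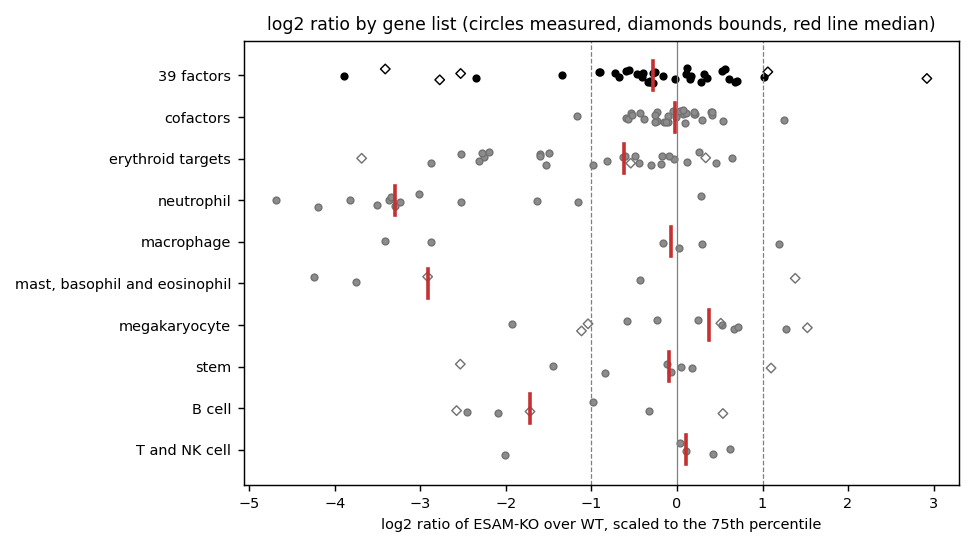
Change from WT to ESAM-KO, as a log2 ratio, of the 39 factors (black) and of the genes in each of 9 other lists (grey), with diamonds for bounds, a red line at each median and dashed lines at 2-fold. The medians of the neutrophil, the mast, basophil and eosinophil and the B cell genes lie below -1, and that of the cofactors lies near 0 at -0.03.

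The 3 factors higher by more than 2-fold all belong to the stem cell group, which did not move as one. HLF marks and maintains stem cells. Hlf (NM_172563) was not well above background in WT, at 0.0735, and was at 0.557 in ESAM-KO, 7.58-fold higher. This is the plain ratio of both signals, a log2 ratio of 2.92 ± 0.36. Hlf was past 2-fold in all 11 other settings that gave a value. The size of the Hlf ratio was not kept with normexp, where the log2 ratio was 1.29, or 2.45-fold. Mecom encodes EVI1, which stem cells need for self-renewal. Its probe for NM_007963 was not well above background in WT, at 0.0140, and was at 0.130 in ESAM-KO, at least 2.09-fold higher, but the probe for NM_021442 was at background in both genotypes, with 0.0440 and 0.0418. The bound of Mecom was past 2-fold in 7 of 11 other settings, and was 0.43 with normexp. Hhex, a homeobox factor of stem cells, early lymphoid cells and the endothelium, was at 1.05 in WT and 2.12 in ESAM-KO, for a log2 ratio of 1.02 ± 0.21. This lies at the criterion itself, and Hhex was within 2-fold with scaling to the array median, with cyclic loess and with normexp. Meis1, the partner of HOX proteins in stem cells, was the exception and was at 1.16 in WT and 0.620 in ESAM-KO, for a log2 ratio of -0.91 ± 0.21. Hhex and Meis1 thus differed by 1.93 ± 0.29 in their log2 ratios, a difference in which the scaling cancels.

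The stem cell genes that are no transcription factors did not share one direction. Of 10 on the array, 8 had a ratio, 6 of them detected on both arrays, and the median was -0.10. By more than 2-fold, 1 was higher and 2 were lower, against 6.99% and 8.43% of all genes with a ratio. The brightest, Angpt1, Mllt3 and Ly6a, were at 2.11, 0.975 and 0.303 in WT. In ESAM-KO they were at 2.01, 0.545 and 0.0489, the last not well above background. The list summed to 4.02 and 3.23, and Procr and Robo4 were at background in both genotypes. Of 12 megakaryocyte genes, the targets of Runx1, Fli1 and Nfe2, 2 were higher and 3 lower, with a median of 0.38. Of these genes 8 were detected on both arrays, and the values of the others are bounds, among them Gp1ba, Gp9 and Ppbp of those past 2-fold. Gp1bb, Itgb3 and Pf4 were the brightest, with 4.97, 2.88 and 1.93 in WT and 4.21, 3.41 and 2.79 in ESAM-KO, and the list summed to 12.6 and 12.8.

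Myc, the growth regulator whose level falls as erythroid cells mature, was measured in 2 spots and was at 6.08 in WT and 4.88 in ESAM-KO, for a log2 ratio of -0.32 ± 0.14. Foxo3 acts in late erythroid maturation and in the defence against oxidative stress. It was at 19.4 and 14.8, a log2 ratio of -0.39 ± 0.20. Both were within 2-fold.

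Most genes for the proteins that these factors recruit were within 2-fold. Of 34 such cofactor genes, for the CoREST and NuRD repressor complexes, the CtBP and SIN3 corepressors, the coactivators, and the E proteins and SSBP proteins that join the SCL complex, 32 had a ratio. By more than 2-fold, 1 was higher and 1 lower, against 6.99% and 8.43% of all genes with a ratio. The median log2 ratio of the cofactor genes was -0.03. The CtBP protein CtBP2 is recruited by FOG1, and Ctbp2 was at 0.709 in WT and 1.69 in ESAM-KO, 2.38-fold higher. Sin3a, the scaffold of a histone deacetylase complex, was at 3.91 and 1.74, a log2 ratio of -1.17 ± 0.20, and within 2-fold without scaling, at -0.85. The brightest were the Mediator subunit gene Med1, with 185 and 172, the acetyltransferase gene Crebbp, with 171 and 154, and the NuRD subunit gene Gatad2a, with 64.0 and 64.3. The E protein genes Tcf3, Tcf4 and Tcf12 had ratios of -0.10, 0.04 and 0.54. Runx1t1 and Ldb2, relatives of Cbfa2t3 and Ldb1, were at background in both genotypes.

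Of 28 genes that GATA1, the SCL complex and KLF1 activate in red cells, 11 were lower and none higher by more than 2-fold, with a median log2 ratio of -0.62. Hemgn, a nuclear protein gene activated by GATA1, was the brightest, with 1009 in WT and 893 in ESAM-KO. The alpha globin genes Hba-a1 and Hba-a2 were at 345 and 110.1 in WT and at 71.9 and 24.0 in ESAM-KO, and as near-identical copies their probes can share cDNA. For comparison, 8.43% of all genes were lower by more than 2-fold, and Gata1, Tal1 and Klf1 had log2 ratios of -0.34, 0.32 and -0.32.

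**Figure D4:**
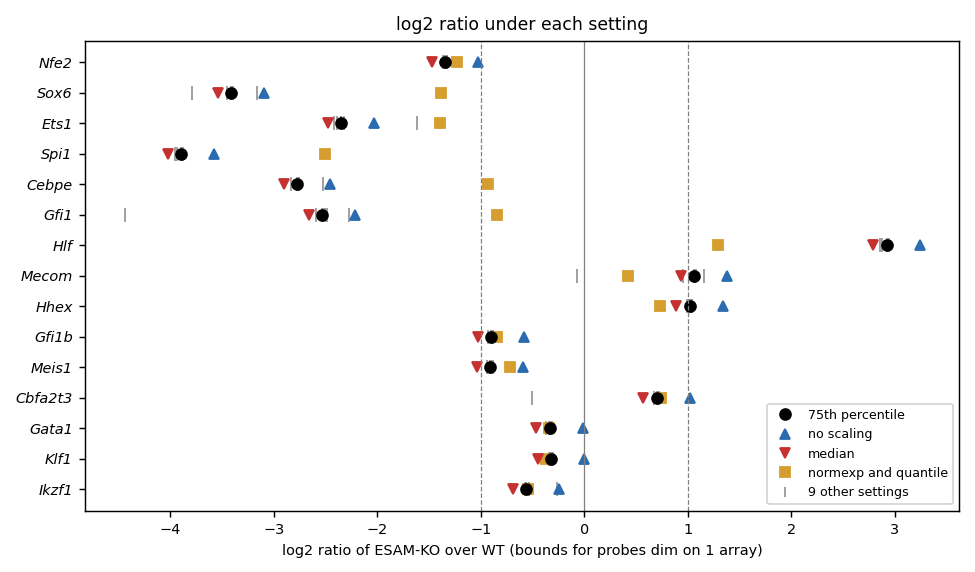
Change from WT to ESAM-KO, as a log2 ratio, for the 9 factors past 2-fold and 6 others under the scaling to the 75th percentile (black circles), no scaling (blue triangles), the median (red triangles), normexp with quantile normalization (yellow squares) and the 9 other settings (grey ticks), with dashed lines at 2-fold. Spi1, Ets1, Sox6 and Nfe2 stay left of -1 and Hlf right of 1 throughout, whereas Hhex and Mecom cross 1 and Gata1 and Klf1 lie between -0.46 and 0.

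Promoter sequences of factors past 2-fold are shown with the words that GATA and ETS proteins can bind, since members of both families were measured here. RefSeq (GRCm38.p6) gave windows for 31 of the 39 factors, 48 windows in all, among them Hlf, Hhex, Mecom, Gfi1 and Sox6 of the 9 past 2-fold. The 250 bases before each start are given 5′ to 3′ on the gene's strand, and capitals mark the GATA words AGATAA or AGATAG or TGATAA or TGATAG and the ETS words AGGAAG or AGGAAA or CGGAAG, searched on both strands.
Hlf, chr11:90390918-90391167 (minus strand): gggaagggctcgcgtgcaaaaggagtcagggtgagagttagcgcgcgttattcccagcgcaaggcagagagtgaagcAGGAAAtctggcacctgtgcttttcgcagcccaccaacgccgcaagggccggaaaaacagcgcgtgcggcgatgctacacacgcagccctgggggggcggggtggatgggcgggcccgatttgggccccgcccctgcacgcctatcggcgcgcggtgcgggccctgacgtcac
Hhex, chr19:37434591-37434840 (plus strand): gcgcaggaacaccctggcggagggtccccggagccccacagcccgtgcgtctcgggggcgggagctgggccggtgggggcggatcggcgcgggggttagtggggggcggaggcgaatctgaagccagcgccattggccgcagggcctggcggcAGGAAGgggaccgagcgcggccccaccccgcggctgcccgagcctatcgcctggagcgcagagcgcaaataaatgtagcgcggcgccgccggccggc
Mecom, window 1, chr3:30013205-30013454 (minus strand): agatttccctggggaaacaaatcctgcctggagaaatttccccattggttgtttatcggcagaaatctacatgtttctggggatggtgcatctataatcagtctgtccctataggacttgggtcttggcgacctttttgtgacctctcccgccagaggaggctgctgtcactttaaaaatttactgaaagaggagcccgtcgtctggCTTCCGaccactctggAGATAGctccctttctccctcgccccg
Mecom, window 2, chr3:30509760-30510009 (minus strand): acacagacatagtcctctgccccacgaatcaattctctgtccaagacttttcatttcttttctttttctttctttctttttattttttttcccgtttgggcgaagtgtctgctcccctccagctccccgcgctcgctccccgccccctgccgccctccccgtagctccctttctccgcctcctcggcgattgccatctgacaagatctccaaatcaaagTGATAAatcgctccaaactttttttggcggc
Gfi1, window 1, chr5:107724344-107724593 (minus strand): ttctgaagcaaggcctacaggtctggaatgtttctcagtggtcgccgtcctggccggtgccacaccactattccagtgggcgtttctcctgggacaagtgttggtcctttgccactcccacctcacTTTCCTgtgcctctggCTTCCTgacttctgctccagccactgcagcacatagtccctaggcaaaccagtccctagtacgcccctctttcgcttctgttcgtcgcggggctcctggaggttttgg
Gfi1, window 2, chr5:107725806-107726055 (minus strand): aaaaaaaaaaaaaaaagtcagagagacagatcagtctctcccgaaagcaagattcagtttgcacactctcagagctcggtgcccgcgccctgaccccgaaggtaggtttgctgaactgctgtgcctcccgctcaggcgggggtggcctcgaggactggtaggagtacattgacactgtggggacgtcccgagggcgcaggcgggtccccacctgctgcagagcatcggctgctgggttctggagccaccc
Sox6 has 6 windows, which are not shown to keep the sequences few, and of these 1 held a GATA word and 2 held ETS words. A GATA word stood in both windows of Mecom and in none of those of Hlf, Hhex and Gfi1. An ETS word stood once in the windows of Hlf, Hhex and the first of Mecom, and in 2 places in the first window of Gfi1. Of all 32851 windows of the genome, 26.5% held a GATA word and 54.4% an ETS word, and of the windows of the factors 22.9% and 45.8%, so these words were no more frequent here than elsewhere. A match is a run of letters and not a bound site.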

How the data were processed

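Pre CFU-E from WT and ESAM-KO mice were measured with 1 Agilent SurePrint G3 mouse array per genotype, after RNA amplification and Cy3 labelling. The authors deposited the intensity of each spot from Agilent Feature Extraction 10.10.1.1, corrected for background within the array and not scaled between arrays. The series table holds the same intensity rounded. Control spots and 254 spots with an outlier flag were left out, no spot was saturated, and spots of a probe were averaged on the log2 scale after division by the array's 75th percentile. A probe counted as above background when over 50% of its spots carried that flag. Accessions were named through RefSeq (GRCm38.p6, names and promoters only), which named 27235 of 55680 probes. The probe of highest mean log2 signal among those with a ratio stood for the gene, and the last condition, which decides the probe of Mecom, was set after values had been seen. The members, the lists and the 2-fold criterion, which is that of the study, were chosen with earlier results of these data known. All 39 factors are named, and of the other lists the 3 brightest genes, the cofactors past 2-fold and, chosen after their values were seen, the genes named as not above background, the E protein genes, Ms4a2 and the sort genes. With 1 array per genotype no test was made, and the number of arrays limits the precision. The calling was tested on simulated data with changes placed in brighter genes only, which cannot show how it performs on dim probes. The alternatives were 5 other scalings, normexp (offset 50, on median spot signals) with quantile normalization, the values of the series table, other filters, summaries and bounds, and 3-fold and 4-fold criteria. Python 3.11.15, pandas 2.3.3, numpy 2.4.6, R 4.3.3 and limma 3.58.1 were used.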

Additional observations from a re-analysis of the deposited data

How the results depend on the processing

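No paired analysis was possible because WT and ESAM-KO hold 1 array each. The 3 factors higher by more than 2-fold became 1 with scaling to the array median, with normexp and quantile normalization, when detection in both genotypes was required, and at thresholds of 3-fold and 4-fold. The 6 lower factors became 3 when detection in both genotypes was required, which removes the bounds by construction. The median log2 ratio of the factors, -0.28, was 0.0368 without scaling, and between -0.41 and -0.24 in the other alternatives. The 2 cofactors past 2-fold became 1 without scaling and 1 with normexp, and 0 at 3-fold and at 4-fold. Over all genes, 2181 were past 2-fold, with 722 by normexp, 4108 without a filter on dim probes, 821 at 3-fold and 449 at 4-fold. The lower genes made up 54.7% of those past 2-fold, 28.8% without scaling and 66.9% with median scaling, as the median of all genes moved by 0.31 and -0.13. It moved by -0.14 without the filter. Mecom was at -0.0724 without the filter, which takes its other probe, and no other factor past 2-fold changed direction. Normexp drew Spi1, Sox6, Ets1 and Hlf to -2.50, -1.39, -1.40 and 1.29, all still past 2-fold, and Cebpe and Gfi1 to -0.93 and -0.85. For the alternatives that moved a value the cause was not tested beyond these. Irf8 lacks a ratio because its signal was near background.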
